A study of Mus musculus with 3 samples.

Results

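Egr1, Egr2, Egr3, Nr4a1, Nr4a2, Ier2, Ier3 and Ier5 are 8 immediate early genes, which respond to stimulation within minutes, and they were followed here in single microglia of the mouse lumbar spinal cord. They are 8 of the 27998 genes in the count matrix, found by their symbols, and they were selected on values of the same cells, after early response genes had been seen at higher levels in 1 of the 3 libraries. Differences between that library and the others therefore describe the selected genes and are not independent evidence. The cells came by YFP (+) sorting from lumbar cords of young adult mice heterozygous for Cx3cr1-creER-yfp, in which Cx3cr1-driven YFP marks microglia and other Cx3cr1-expressing cells, and every group carried this allele. The groups were naive animals and animals 24 h (SNTr24h) or 48 h (SNTr48h) after a sciatic nerve injury, with 3 animals pooled for each group according to the methods and 1 library per group. Unique molecular identifiers (UMIs), which count each captured transcript once, were deposited for 7522 cells in 1 matrix.

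The cell barcodes carried a suffix of 1, 2 or 3, and no label tied a suffix to a group, so the values below belong to library 1, 2 or 3 of unknown time point. No comparison by time point was made, and with 1 library per group no test was possible. All intervals are exact 95% intervals (Poisson for counts, Clopper-Pearson for shares) for the counting error alone, and differences between animals are not in them. The median was 2218 UMIs per cell among the 609 of library 1, 5952 among the 3591 of library 2 and 5742 among the 3322 of library 3. For shares of cells, sums per cell and correlations, each cell was thinned to 2000 UMIs, which left 408, 3569 and 3284 cells. All 8 microglia markers examined, P2ry12 and Tmem119 among them, were found in each library, and 100% of cells had at least 2 of them. Summed markers of neurons, monocytes and perivascular macrophages stayed below 9 UMIs per 1000000 in every library, with Cd163 at 0 throughout. Oligodendrocyte markers summed to 64.2 to 78.9 and astrocyte markers to 100 to 164 UMIs per 1000000, against 12750 to 15538 for the microglia markers. In library 1 the astrocyte sum came from Slc1a3 alone. At least 2 astrocyte markers were held by at most 0.418% of cells of a library, and at least 2 oligodendrocyte markers by at most 4.43%. Endothelial markers summed to 15.8 to 35.0, and T or NK cell markers to 0.745, 14.3 and 0.253 in libraries 1 to 3. The median mitochondrial share was 0.945%, 1.52% and 1.20%. Some barcodes occurred in more than 1 library (5 in libraries 1 and 2, 3 in libraries 1 and 3, 19 in libraries 2 and 3), and without them the mean of the 8 genes summed per cell was 0.715, 0.909 and 8.77 UMIs, against 0.718, 0.909 and 8.77 with them.

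Immediate early genes are transcribed without new protein synthesis, when kinases of the MAP kinase cascades activate factors already bound to their promoters, such as the serum response factor with its Elk partners and the cAMP response element binding protein. Their transcripts are typically short-lived. Egr1, Egr2 and Egr3 encode zinc finger transcription factors that bind a GC-rich site. Nr4a1 and Nr4a2 encode orphan nuclear receptors that restrain inflammatory gene expression in myeloid cells. Ier2, Ier3 and Ier5 share a name given for their rapid induction. Ier2 encodes a nuclear protein, Ier3 a regulator of cell survival under stress, and Ier5 a partner of a protein phosphatase that is known to promote heat shock factor activity.

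Promoters of some of the members are shown so that their proximal sequences can be read beside the levels. Windows before RefSeq (GRCm38.p6) starts are given for 5 of the 8 members, namely Egr2, Nr4a1, Nr4a2, Ier3 and Ier5. Those of Egr1, Egr3 and Ier2 were left out. Each line gives the 250 bases before the annotated start on the gene's own strand, 5′ to 3′. Capitals mark matches, on either strand, to the core of a cAMP response element (TGACG), to the CArG box bound by serum response factor, or to an Egr site (GCGNGGGCG). The windows are chr10:67537619-67537868 (plus) for Egr2, chr15:101266596-101266845 (plus) for Nr4a1, chr2:57124004-57124253 (minus) for Nr4a2, chr17:35821463-35821712 (plus) for Ier3 and chr1:155099637-155099886 (minus) for Ier5.
Egr2: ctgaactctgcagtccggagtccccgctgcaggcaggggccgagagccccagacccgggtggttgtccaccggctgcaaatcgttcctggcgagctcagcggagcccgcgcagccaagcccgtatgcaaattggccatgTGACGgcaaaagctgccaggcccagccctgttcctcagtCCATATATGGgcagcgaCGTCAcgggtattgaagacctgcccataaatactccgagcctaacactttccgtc
Nr4a1: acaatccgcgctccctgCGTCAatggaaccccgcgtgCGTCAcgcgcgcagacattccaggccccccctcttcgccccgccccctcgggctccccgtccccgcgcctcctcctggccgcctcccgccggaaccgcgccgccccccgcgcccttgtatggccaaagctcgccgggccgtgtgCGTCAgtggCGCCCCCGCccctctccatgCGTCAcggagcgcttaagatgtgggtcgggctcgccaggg
Nr4a2: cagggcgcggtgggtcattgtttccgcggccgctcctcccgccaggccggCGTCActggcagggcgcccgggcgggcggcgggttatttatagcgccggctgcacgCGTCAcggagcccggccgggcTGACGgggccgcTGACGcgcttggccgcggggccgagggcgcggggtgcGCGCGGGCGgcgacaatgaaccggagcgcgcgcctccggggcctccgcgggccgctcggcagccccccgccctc
Ier3: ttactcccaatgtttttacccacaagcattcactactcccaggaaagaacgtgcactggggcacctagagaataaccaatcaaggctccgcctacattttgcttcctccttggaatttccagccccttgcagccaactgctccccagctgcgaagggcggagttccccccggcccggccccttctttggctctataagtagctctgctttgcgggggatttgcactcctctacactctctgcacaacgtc
Ier5: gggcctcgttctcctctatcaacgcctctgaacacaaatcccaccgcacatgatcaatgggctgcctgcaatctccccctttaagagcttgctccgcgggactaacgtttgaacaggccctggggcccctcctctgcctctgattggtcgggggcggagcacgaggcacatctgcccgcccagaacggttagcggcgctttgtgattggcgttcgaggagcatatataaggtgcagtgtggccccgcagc

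Among the 5 windows, those of the 3 transcription factor genes held the matches. Nr4a1 and Nr4a2 each had 4 matches to TGACG and Egr2 had 2. Of 32851 RefSeq windows of this length, 17.8% had at least 1 and 0.688% had at least 3. These windows were not matched for base composition. The share of G and C was 74.4% in the Nr4a1 window and 80% in that of Nr4a2, against 61.6% for Egr2, 60% for Ier5 and 54.4% for Ier3. A CArG box, found in 1.47% of windows, lay 72 bases before the Egr2 start. An Egr site, found in 4.70% of windows, lay 60 bases before the Nr4a1 start and 74 bases before the Nr4a2 start. The letters AAAGGTCA, the site that Nr4a receptors bind as monomers, were in none of the 5 windows and in 1.34% of all. No letters of these 4 motifs occurred in the windows of Ier3 and Ier5. Matches did not overlap each other. Egr2 has 5 annotated starts, 3 of them within 61 bases, so its window describes 1 of several. The Nr4a1 window ends at 101266845, within the gene span given below, which begins at 101254269. The Ier3 window ends at 35821712, past the gene start given below, 35821684. Both windows precede the RefSeq start, which differs from the start of that span. Among these 5 genes, the 2 with the most matches, Nr4a1 and Nr4a2, were the least abundant members of library 3 (levels below). Matches before Egr1, Egr3 and Ier2 were not examined, so no relation of matches to level can be read from this.

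Egr1 was the most abundant of the zinc finger genes. It lies on chromosome 18 from 34859823 to 34864984, on the plus strand (GENCODE M21, GRCm38, as for all gene positions below; ENSMUSG00000038418). Levels are given in CPM, UMIs of the gene per 1000000 UMIs of the library. Each UMI stands for 1 transcript counted near its 3′ end, so CPM values were compared between genes without dividing by length. Egr1 was at 9.68 CPM (interval 5.15 to 16.6) in library 1, 51.8 CPM (49.0 to 54.8) in library 2 and 944 CPM (930 to 957) in library 3. The 3 intervals were separate, with library 3 far above the others. At equal depth, 1.72% (0.693 to 3.50), 9.27% (8.34 to 10.3) and 82.4% (81.0 to 83.7) of cells held an Egr1 UMI.

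Egr2 (chromosome 10, 67535475 to 67542188, plus strand; ENSMUSG00000037868), which is best known for its role in myelinating Schwann cells, was not detected in library 1. Its level was 2.70 CPM (2.08 to 3.44) in library 2 and 49.1 CPM (46.0 to 52.3) in library 3. None of 408 thinned cells of library 1 held a UMI, which by the limit of 3 counts allows a share of up to 0.735% (exact upper end 0.900%), against 0.532% (0.321 to 0.830) in library 2 and 8.43% (7.51 to 9.44) in library 3. Egr3 (chromosome 14, 70077203 to 70082614, plus strand; ENSMUSG00000033730) gave 0 UMIs in library 1, 2 UMIs in library 2 and 172 UMIs in library 3, where its level was 8.70 CPM (7.45 to 10.1). Egr2 and Egr3 were thus seen almost entirely in library 3, Egr3 in 1.71% of its thinned cells (1.29 to 2.21). Egr4, the remaining Egr gene, did not exceed 0.152 CPM in any library.

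The Nr4a receptor genes were scarce everywhere. Nr4a1 (chromosome 15, 101254269 to 101274795, plus strand; ENSMUSG00000023034) had 0 UMIs in library 1, 16 UMIs or 0.664 CPM (0.380 to 1.08) in library 2 and 85 UMIs or 4.30 CPM (3.43 to 5.32) in library 3. The floor in library 1, the level of 3 counts, was 2.23 CPM, and the exact interval for Nr4a1 there reached 2.75 CPM. Its 0 UMIs therefore do not set library 1 apart from the level of library 2. Nr4a2 (chromosome 2, 57106830 to 57124003, minus strand; ENSMUSG00000026826) was found as a single UMI in 26 of 7522 cells. Its level was 1.49 CPM (2 UMIs, 0.180 to 5.38) in library 1, 0.456 CPM (11 UMIs, 0.228 to 0.817) in library 2 and 0.658 CPM (13 UMIs, 0.350 to 1.12) in library 3. These 3 intervals overlapped. Nr4a2 was the 1 member for which no library could be told from another at this depth. Nr4a3 did not exceed 0.202 CPM.

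Ier2 (chromosome 8, 84661331 to 84662852, minus strand, 1 exon; ENSMUSG00000053560) was the most abundant member, with 45153 UMIs in all and up to 50 in a single cell. It was at 38.7 CPM (28.9 to 50.8) in library 1, 101 CPM (97.3 to 105) in library 2 and 2158 CPM (2137 to 2178) in library 3. The thinned share was 5.88% (3.80 to 8.63), 17.8% (16.6 to 19.1) and 97.2% (96.5 to 97.7). Nearly every cell of library 3 thus held Ier2, which a minority of cells did in the other libraries, and before thinning 3321 of its 3322 cells had at least 1 UMI.

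Ier3 (chromosome 17, 35821684 to 35822923, plus strand, 2 exons; ENSMUSG00000003541) was at 13.4 CPM (7.94 to 21.2) in library 1, 19.2 CPM (17.5 to 21.0) in library 2 and 223 CPM (217 to 230) in library 3. Libraries 1 and 2 overlapped and library 3 lay above both. Ier3 reached 32.1% (30.5 to 33.7) of thinned cells in library 3, against 2.45% (1.18 to 4.46) and 3.56% (2.97 to 4.22). Ier5 (chromosome 1, 155096361 to 155099636, minus strand, 1 exon; ENSMUSG00000056708) was the member with a sizeable level in all libraries, at 275 CPM (247 to 304), 279 CPM (272 to 286) and 1107 CPM (1092 to 1121). Its share at equal depth was 42.9% (38.0 to 47.9) in library 1 and 43.1% (41.5 to 44.8) in library 2, and the intervals overlapped, while library 3 stood at 86.4% (85.2 to 87.5). No cell type known to lack these genes was present among the sorted cells, so the part of each share that comes from free RNA could not be measured.

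**Figure D1:**
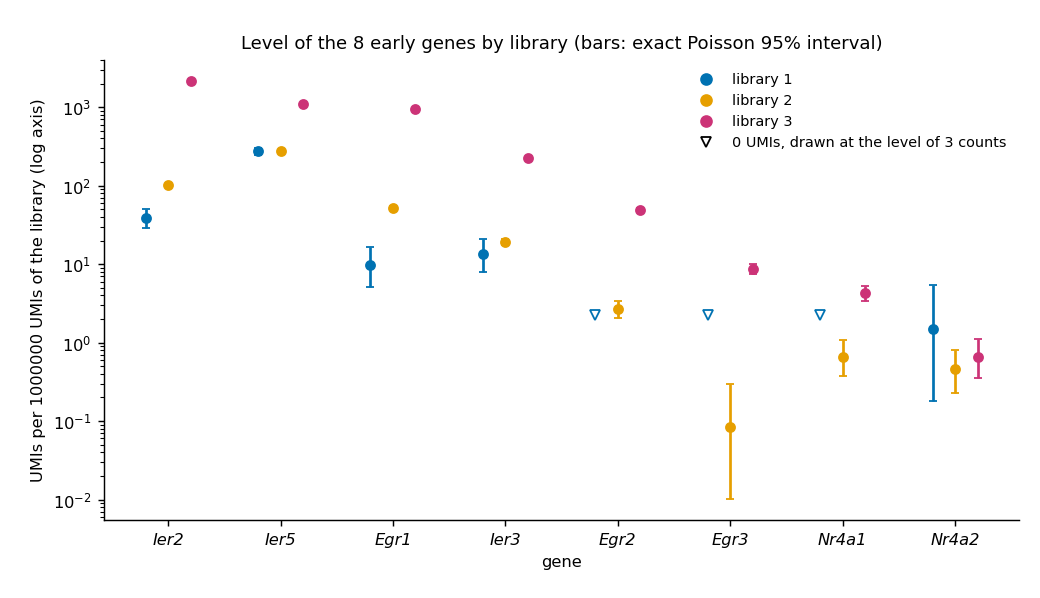
Level of each of the 8 genes in libraries 1, 2 and 3, in UMIs per 1000000 on a log axis, with exact Poisson 95% intervals, and open triangles at the level of 3 counts where a gene had 0 UMIs. Library 3 sits highest for 7 genes (Ier2 at 2158, Nr4a1 at 4.30), and the Nr4a2 intervals overlap in all 3 libraries.

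The order of the members differed between libraries. In library 3 it ran from Ier2 over Ier5, Egr1, Ier3, Egr2, Egr3 and Nr4a1 to Nr4a2, and no 2 neighbouring intervals overlapped. In library 2 Ier5 stood first and Ier2 second, followed by Egr1, Ier3 and Egr2, while at the low end the interval of Nr4a2 overlapped those of Nr4a1 and Egr3, which were separate from each other. In library 1 the order began with Ier5 and Ier2, and Ier3 and Egr1 could not be separated. Of the UMIs of the 8 genes in thinned cells, Ier5 gave 82.9% in library 1 and 61.9% in library 2 but 25.1% in library 3, where Ier2 gave 47.9% and Egr1 20.8%. The makeup of the group thus differed between libraries as well as its total.

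Ratios of CPM were taken among genes with at least 20 CPM in either library, a minimum that 5 members passed in both comparisons with library 3 (Egr1, Egr2, Ier2, Ier3 and Ier5). Egr3, Nr4a1 and Nr4a2 did not pass it. Against library 2, Egr2 (2.70 CPM there) and Ier3 (19.2 CPM) passed it through library 3 alone. Library 3 exceeded library 2 at least 2-fold for 5 of these 5 members, where 1.7% of 6337 genes did, and this count is what the selection of the members fixed. Ier2 was 21.3-fold higher (20.5 to 22.2), Egr1 18.2-fold (17.2 to 19.3), Egr2 18.2-fold (14.1 to 23.8), Ier3 11.6-fold (10.6 to 12.8) and Ier5 3.97-fold (3.86 to 4.08). Egr1 and Egr2 thus had ratios that overlapped although their levels differed widely, and Ier5 had the smallest ratio of the 5. Ranked over all 6337 genes, Ier2, Egr1 and Egr2 stood 8th, 9th and 10th, Ier3 13th and Ier5 49th. At least 2-fold lower levels were seen in 2.67% of genes and in 0 of the members. The median ratio over all genes was 0.982.

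Among the scarce members, Egr3 had a ratio of 105 of library 3 to library 2 that rested on 2 UMIs in library 2 (28.6 to 873). The ratio of Nr4a1 was 6.48 (3.77 to 11.8). Nr4a2 gave 1.44 (0.596 to 3.55), an interval that holds 1. The interval of Nr4a1 lay above that of Nr4a2.

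Against library 1, library 3 was at least 2-fold higher in 5 of 5 members, beside 3.79% of 6667 genes. It was at least 2-fold lower in 0 members, beside 5.97%. The selection of the members fixed this count as well. Egr1, Egr2 and Ier3 passed the minimum through library 3 alone, at 9.68, 0 and 13.4 CPM in library 1. Egr1 was 97.5-fold higher (57.0 to 183), Ier2 55.7-fold (42.5 to 74.6), Ier3 16.6-fold (10.5 to 28.1) and Ier5 4.03-fold (3.63 to 4.48). Egr2 was at least 21.97-fold, Egr3 at least 3.90-fold higher and Nr4a1 at least 1.92-fold, all set against the 3-count floor of library 1, where exact intervals for the 0 counts begin at 17.8, 3.13 and 1.53. Both comparisons share library 3, so they are not separate findings. Library 2 differed from library 1 by much less. Egr1 was 5.35-fold (3.12 to 10.1) and Ier2 2.62-fold (1.99 to 3.51) higher in library 2, 2 of 3 members that passed the minimum, where 5.32% of 6790 genes were higher and 4.62% lower. Egr1 passed the minimum through library 2 alone, at 9.68 CPM in library 1, so this count is not independent evidence either. Ier5, the remaining one of the 3, had a ratio of 1.02 (0.914 to 1.13), and Ier3, under the minimum, one of 1.43 (0.895 to 2.44).

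**Figure D2:**
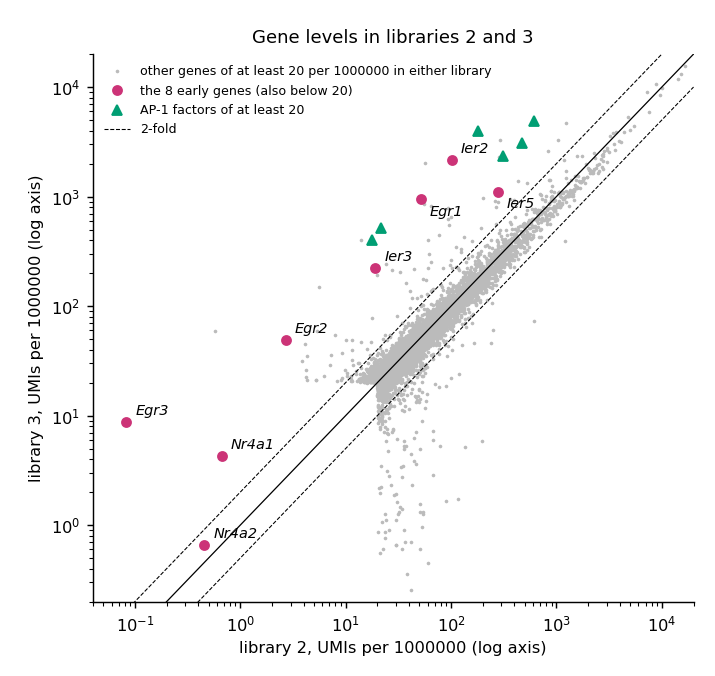
Level of each gene in library 2 (horizontal) and library 3 (vertical), in UMIs per 1000000 on log axes, for genes with at least 20 in either library, with the 8 members and the AP-1 factors marked and dashed lines at 2-fold. Egr1, Egr2, Ier2, Ier3 and Ier5 lie above the upper dashed line, by 3.97-fold (Ier5) to 21.3-fold (Ier2), and Nr4a2 lies between the dashed lines.

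Summed over the 8 genes, a thinned cell held 0.718 ± 0.967 UMIs in library 1 (mean ± SD over cells), 0.909 ± 0.985 in library 2 and 8.77 ± 3.82 in library 3, over the 408, 3569 and 3284 cells kept. The SD is taken over cells of 1 library, which are not replicates. In library 3 the sum ranged from 1 to 25, with a median of 8 and 5th and 95th percentiles of 3 and 16. Most cells lay apart, since 94.5% of library 3 cells were above the 95th percentile of library 2 (3 UMIs). Above the median of library 3 lay 0 cells of libraries 1 and 2. The ranges overlapped, as libraries 1 and 2 reached 6 UMIs, the 25th percentile of library 3. No member at all was found in 51.5% of cells of library 1 (46.5 to 56.4) and 41.4% of cells of library 2 (39.7 to 43.0). In library 3 this was so in 0 of 3284 cells, which by the limit of 3 counts allows a share of up to 0.0914% (exact upper end 0.112%). The higher sum was thus shared by the cells of library 3 and did not come from a few of them.

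**Figure D3:**
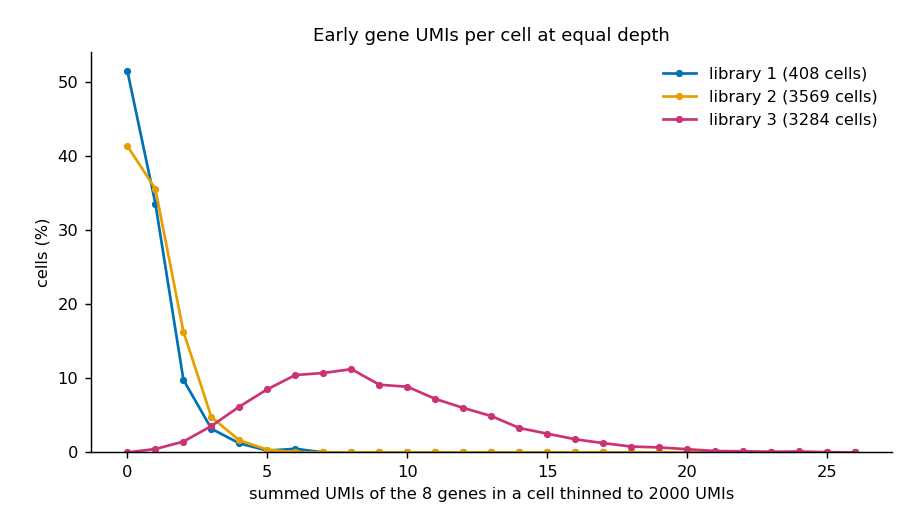
Share of cells in percent (vertical) by the summed UMIs of the 8 genes in a cell thinned to 2000 UMIs (horizontal), 1 line per library. Libraries 1 and 2 peak at 0 UMIs and end at 6, and library 3 peaks at its median of 8 and extends to 25.

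The number of different members found in a cell was higher in library 3 as well. In library 3, 50.03% of thinned cells held 3 members, 26.1% held 4, 18.1% held 2 and 2.65% held 1, and the highest number was 6, in 3 cells. In library 2, 44.4% of cells held 1 member, 12.8% held 2 and 1.37% held 3. In library 1, 44.4% held 1 and 3.68% held 2. Ier2, Ier5 and Egr1 made up the usual set of library 3, as each was found in over 80% of its cells, and Ier3 was the usual addition. 

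Within library 3 the cells still differed from each other, to an extent that varied by gene. Spread was measured as variance over mean of the thinned counts, which is 1 where counting error is the whole of it, and ranked over 5217 genes with at least 0.05 UMIs per cell, whose median was 1.01. Ier2 stood at 1.498 (rank 34), Ier3 at 1.27 (rank 70), Ier5 at 1.20 (rank 90), Egr1 at 1.10 (rank 164) and Egr2 at 1.08 (rank 260). All 5 lay above the median gene. Ier2 counts ran from a 5th percentile of 1 to a 95th of 9 and a maximum of 17, with a median of 4. Egr1 ran from 0 to 4 between the same percentiles, with a median of 2 and a maximum of 9. Ier5 ran from 0 to 5, also with a median of 2, and reached 11.

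Because this index grows with the level, the spread left after counting error was also expressed as a coefficient of variation (the square root of the excess variance divided by the mean). It was 0.235 for Egr1, 0.305 for Ier5, 0.344 for Ier2, 0.795 for Ier3 and 0.910 for Egr2. On this scale Ier3 and Egr2 had the highest values and Egr1 the lowest, a different order from that of the index. No interval was computed for these values, and that of Egr2 rests on an index of 1.08. The tenth of cells with the most Ier3 (328 cells) held 48.3% of its UMIs, against 22.4% for Ier2, 24.99% for Ier5 and 25.8% for Egr1, and a low mean alone also raises this share. Ier3 was found in no UMI of 67.9% of cells, where a Poisson distribution with its mean gives 65.2%. For Ier2 these figures were 2.83% and 1.498%, so cells without a UMI were somewhat more frequent than counting error gives, also for Ier5 (13.6% and 11.1%) and Egr1 (17.6% and 16.2%).

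In library 2 the index was 1.06 for Ier2 (rank 398 of 5302), 1.04 for Egr1 (rank 923) and 1.01 for Ier5 (rank 2390), beside a median of 1.01. Ier5 in particular was spread across cells there about as the median gene was. The coefficient of variation left after counting error was 0.602 for Egr1, 0.528 for Ier2 and 0.139 for Ier5 in library 2. For Egr1 and Ier2 the value was above that of library 3 and for Ier5 below it. These coefficients rest on small excesses of the index over 1, and no interval was computed for them. The lower index of library 2 therefore shows neither less nor more variation between cells. In library 1, where 24 thinned cells held Ier2, its index was 1.40 (rank 102 of 5525), and Ier5 was at 1.13 (rank 958), beside a median of 1.03.

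**Figure D4:**
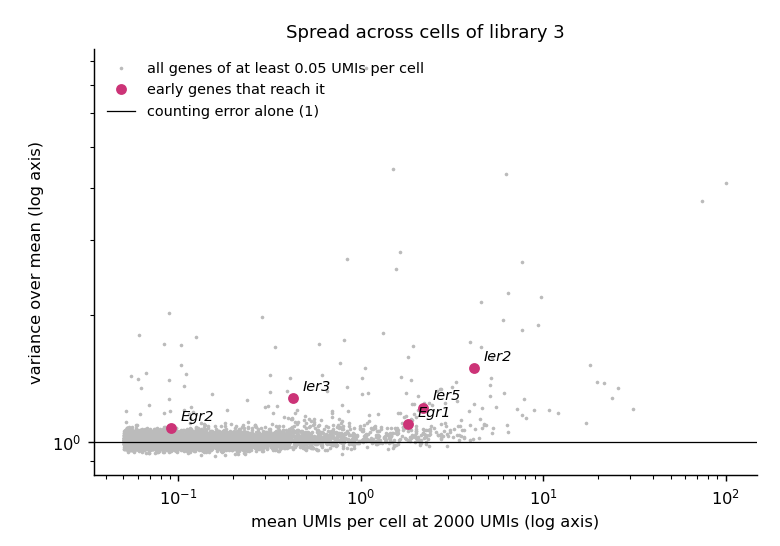
Variance over mean (vertical, log axis) against mean UMIs per cell (horizontal, log axis) in library 3 at 2000 UMIs per cell, with a grey point per gene, the 5 members that reach a mean of 0.05 in pink and a line at 1 for counting error. The members lie above the line, from 1.08 (Egr2) to 1.498 (Ier2).

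Across cells of library 3, the members were weakly correlated with each other. Spearman correlations are descriptions over 3284 cells that share a library, a thinning depth and sparse counts. Egr1, Egr2, Ier2, Ier3 and Ier5 were each found in at least 5% of cells and gave 10 of the 28 possible pairs. The median correlation of the 10 pairs was 0.0530, from 0.00670 for Ier3 with Ier5 to 0.142 for Ier2 with Ier5, beside a median of -0.000226 and a 95th percentile of 0.0294 over all 13094403 pairs of 5118 genes. Egr1 correlated with Ier2 at 0.0995, with Ier5 at 0.0940, with Ier3 at 0.0605 and with Egr2 at 0.0456. The values are small, and they depended on depth, with a median of 0.0267 at 1000 UMIs per cell and 0.0765 at 4000. In library 2, where Egr1, Ier2 and Ier5 passed, the median of 3 pairs was 0.0248. It lay below the 95th percentile of 0.0282 over all pairs there, and Egr1 with Ier5 gave -0.000480. The median of the 3 pairs went to 0.00953 at 1000 UMIs, 0.0113 at 4000 and 0.0124 without cells that held a gene of the dividing list. In library 1 the single pair of Ier2 and Ier5 gave 0.0580 over 408 cells, below the 95th percentile of 0.0857 over all pairs there.

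Cells of library 3 grouped by their Egr1 count show the size of this relation. From the 579 cells with 0 Egr1 UMIs over those with 1 (944 cells), 2 (861 cells) and 3 (517 cells) to the 383 cells with 4 or more, mean Ier2 went from 3.87 over 4.03, 4.25 and 4.37 to 4.78 UMIs. The standard error over cells was 0.0964 at the low end and 0.139 at the high end. Mean Ier5 went from 1.97 to 2.54 UMIs. The share of cells with Ier3 was 28.2% (24.5 to 32.0) in cells without Egr1 and 38.6% (33.7 to 43.7) in those with 4 or more, and that with Egr2 was 7.08% (5.13 to 9.48) and 11.5% (8.47 to 15.1). The Ier3 intervals were separate and the Egr2 intervals overlapped. A library 3 cell without an Egr1 UMI therefore still held Ier2 in 96.4% of cases.

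**Figure D5:**
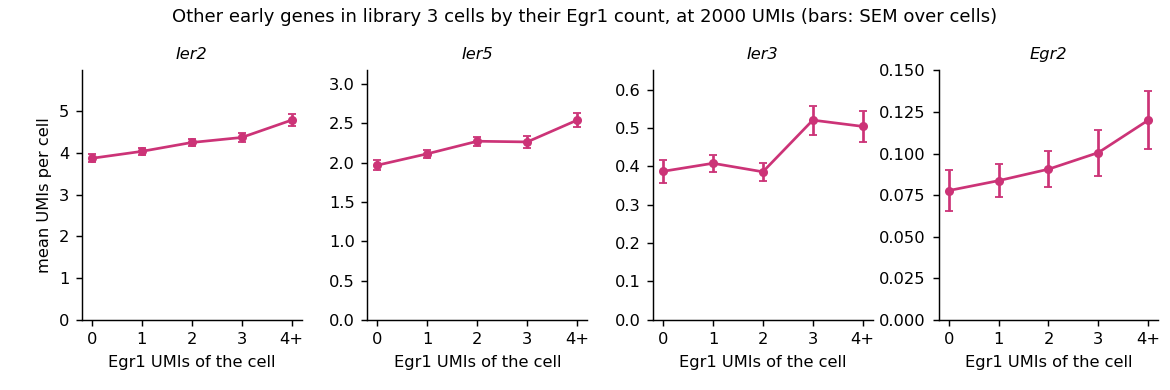
Mean UMIs per cell (vertical, from 0) of Ier2, Ier5, Ier3 and Egr2 in library 3 cells grouped by their Egr1 UMIs (horizontal), at 2000 UMIs per cell, with the standard error over cells. Ier2 goes from 3.87 to 4.78 and Ier5 from 1.97 to 2.54, and each is well above 0 in cells without Egr1.

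The genes most like each member across library 3 cells, the 3 with the highest Spearman correlation among 5117 others, came from a small circle. Jun, Fos and Junb encode subunits of AP-1, the dimeric early response factor. Btg2 encodes an antiproliferative protein that promotes the removal of poly(A) tails, and H3f3b a replication-independent histone H3. For Egr1 they were Jun (0.223), Fos (0.201) and Btg2 (0.189), and for Ier5 Jun (0.237), Fos (0.225) and Junb (0.224). For Ier2 they were Junb (0.247), Btg2 (0.246) and H3f3b (0.241). Egr2 had Fos (0.0857), H3f3b (0.0789) and Jun (0.0718), and Ier3 had Btg2 (0.104), Junb (0.0799) and H3f3b (0.0698), both at lower values. No member was among the 3 nearest genes of another member. All of these neighbours are abundant in library 3, each found in over 95% of its thinned cells, and abundance favours a high correlation in sparse counts.

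Of the AP-1 factors, a group of 8 genes, most moved in the same libraries. Fosl1 and Fosl2 stayed below the minimum, with Fosl2 at 8.22 CPM in library 2 and 9.36 CPM in library 3. Of the 6 that reached the minimum in library 2 or 3, 6 were at least 2-fold higher in library 3 (Fos, Fosb, Jun, Junb, Jund and Atf3). This stood beside 1.7% of all genes, and the median ratio of the 6 was 15.1. Atf3 passed through library 3 alone (17.8 CPM in library 2). The list, like those below, was chosen with earlier results of these data known, so such counts are not independent evidence. The highest was Fosb, at 519 CPM against 21.9 CPM (23.7-fold), and the lowest Junb, at 3072 CPM against 476 CPM (6.45-fold). Of the 5 members above the minimum, Egr1, Egr2, Ier2 and Ier3 thus had ratios within the AP-1 range, and Ier5 was below it. Between libraries 2 and 1, 2 of 6 AP-1 factors were at least 2-fold higher in library 2, beside 5.32% of all genes. They were Fos (7.48-fold) and Fosb (5.87-fold), and Egr1 and Ier2 were higher as well. Fosb passed the minimum through library 2 alone (3.72 CPM in library 1). Jun had a ratio of 1.67, Junb 1.05, Jund 1.01 and Atf3 0.769, beside 1.02 for Ier5.

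Feedback genes end a MAP kinase signal or remove early transcripts. Of 5 measured, 4 were at least 2-fold higher in library 3 than in library 2 and 0 lower, with a median ratio of 6.75. Over all genes, 1.7% were at least 2-fold higher and 2.67% lower. Dusp1, a phosphatase that inactivates MAP kinases, was at 2013 CPM against 56.4 CPM (35.7-fold). Btg2 was 8.03-fold, Zfp36, which directs AU-rich transcripts to decay, 6.75-fold and Dusp6, a phosphatase of ERK, 3.05-fold higher. Spred1, an inhibitor of Ras signalling, had a ratio of 1.11. Against library 1, Dusp6 had a ratio of 1.80, and 3 of 5 were at least 2-fold higher, beside 3.79% of all genes. Dusp1 passed the minimum there through library 3 alone (19.4 CPM in library 1).

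Genes of the machinery that switches the members on did not reach 2-fold between libraries 3 and 2. Over all genes, 1.7% were at least 2-fold higher and 2.67% lower, so 0 in lists this short is near those shares. Of 12 upstream transcription factors 6 were measured, with 0 higher, 0 lower and a median ratio of 1.04 of library 3 to library 2, from 0.935 for Elk3 to 1.16 for Elk4. Of 8 upstream kinases 7 were measured, with 0 higher, 0 lower and a median of 1.01, from 0.880 for Mapk3 to 1.31 for Map2k1. These are transcript levels and say nothing of kinase activity. Against library 1 the single gene at 2-fold was Mef2d, a transcription factor of the MEF2 family, at 18.8 CPM in library 3 and 16.7 CPM in library 2 against 43.9 CPM in library 1. Of 9 relatives and partners of the members 3 reached the minimum, and these stayed under 2-fold. Nab2, a corepressor of Egr proteins, had a ratio of 1.29 between libraries 3 and 2, Rxrb, a partner receptor of the Nr4a proteins, 1.18, and Ier3ip1, whose product was named for binding Ier3, 0.846.

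Other measures also moved with library 3. Of the heat shock genes 9 of 10 were measured, and 3 were at least 2-fold higher in library 3 than in library 2, namely Hspb1 (59.0 CPM against 0.581 CPM), Hspa1a (148 CPM against 5.602 CPM) and Dnajb1 (254 CPM against 65.0 CPM), with a list median of 1.81 and a lowest ratio of 0.992 for Hspe1, beside 1.7% of all genes at least 2-fold higher. Hspa1a, Hspb1 and Hsph1 reached the minimum in library 3 alone. Against library 1, 8 of 9 heat shock genes were at least 2-fold higher in library 3 (median 3.74, beside 3.79% of all genes). In library 2, 3 of 6 were (median 1.94, beside 5.32%). Their summed level per thinned cell was 2.50 UMIs in library 1, 4.92 in library 2 and 8.69 in library 3, and AP-1 factors summed to 2.46, 3.26 and 29.8 UMIs. Across cells of library 3, the summed members correlated with the heat shock sum at 0.0635 and with the AP-1 sum at 0.458, with the mitochondrial share at -0.113 and with the cell's depth before thinning at 0.150. The part of heat shock, mitochondrial share and depth in the levels of the members was not tested. When library 3 cells were split by depth into 4 equal groups of 821, from a median of 4089 UMIs in the shallowest to 7936 in the deepest, the summed members went from 7.85 (7.66 to 8.05) to 9.15 (8.95 to 9.36) UMIs. In library 2 such groups ranged from 0.829 to 1.004 UMIs. The members were selected on this gap between the libraries, and the part of depth in it was not tested.

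Library 2 differed from the others by genes of dividing cells, such as Top2a and Mki67, whose list summed to 2.51 UMIs per thinned cell against 0.199 in library 1 and 0.306 in library 3. Of the 12 genes of that list, 10 were at least 2-fold lower in library 3 than in library 2, beside 2.67% of all genes. All of these 10 but Stmn1 passed the minimum through library 2 alone. The list was chosen with earlier results of these data known, so the count is not independent evidence. Within library 2, cells with at least 2 of these genes (1944 cells) held 0.902 summed early gene UMIs and cells with none (420 cells) held 0.988, a ratio of 0.913 (0.820 to 1.02). Within library 3 the means were 8.22 UMIs in 104 cells and 8.79 in 2461 cells, a ratio of 0.935 (0.873 to 1.002). Both intervals reach 1, so a difference was not detectable at this depth. Among the single members in either library, the interval of the ratio left out 1 for Ier3 in library 3 alone, at 0.660 (0.443 to 0.947) in library 3, where 27.9% of dividing-list cells (19.5 to 37.5) and 32.4% of cells without those genes (30.6 to 34.3) held it. Egr1 and Ier2 gave 0.903 (0.771 to 1.05) and 0.978 (0.885 to 1.08) in the same library.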

How the data were processed

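Single-cell libraries (10x Genomics) of sorted YFP (+) cells were counted by the authors, who deposited raw UMI counts per gene and cell, not normalized, as 1 matrix of 27998 genes and 7522 cells. The submitters' processing notes name Cell Ranger 2.1.1 and mm10. For the annotation release, the cell calling and any down-sampling on joining, details were not given in the sources used here. Doublets were kept. Total UMIs were 1343055, 24097543 and 19769170 in libraries 1 to 3, which bound the precision of each value by counting error. Cells of under 2000 UMIs (201, 22 and 38) were left out where counts were thinned to 2000 UMIs without replacement (seed 1).

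CPM summed the counts of all cells of a library. A ratio was called at 2-fold or more, without pseudocount, among genes of at least 20 CPM in either library. A library at 0 was set to 3 counts. The members and gene lists were chosen with earlier results of these data known. The text names the 8 members, the 3 genes that correlate best with each member found in at least 5% of cells, and list genes at 2-fold or at a list's ends. A few others were named after their values were seen: Egr4, Nr4a3, and Jun, Junb and Jund between libraries 2 and 1. Promoter sequences are from RefSeq (GRCm38.p6), gene positions from GENCODE M21, which the counts may not rest on. No gene overlaps a member in that annotation. The ratio and correlation steps were run on simulated data. The simulated correlation had more UMIs per cell than Egr2 or Ier3 and no thinning. It therefore does not vouch for correlations as small as those given here. Alternatives were other depths, minima, folds, scalings, cell filters and seeds. Scripts ran in Python 3.11.15 with pandas 2.3.3, scipy 1.17.1, matplotlib 3.10.9 and numpy 2.4.6.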

Additional observations from a re-analysis of the deposited data

How the results depend on the processing

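No paired analysis was possible because each time point is 1 library. Of 45 alternative values of the sums per cell, the counts of members at 2-fold and the median pair correlation of library 3, 41 stayed within the spread set for them and 0 changed direction. That spread was wide for counts. Between libraries 3 and 2 it held 6 members (minimum of 5 CPM) and 4 (minimum of 100 CPM, or 4-fold), against 5. It also held a median correlation of 0.0267 at 1000 UMIs, against 0.0530. The cell filter kept all 3591 cells of library 2 and 3322 of library 3, so their values could not move under it. The mean sum per cell moved from 0.909 to 0.872 UMIs in library 2 when cells were thinned to 1000 UMIs, and from 8.77 to 9.01 in library 3 when they were thinned to 4000. Between libraries 2 and 1, the count of members at least 2-fold higher went from 2 to 1 with a minimum of 100 CPM and from 2 to 1 at 4-fold. Library 1 could not be thinned to 4000 UMIs, since 9 of its cells reach that depth. Of 199 other values (levels, ratios, shares, spread and the median correlation of library 2), 53 moved and 1 changed direction. The Nr4a2 ratio of library 3 to library 2 went from 1.44 to 0.971 when each cell's own CPM was averaged, and its counting interval holds 1. The values that moved were shares of cells at another depth or with at least 2 UMIs, and variance over mean at 4000 UMIs, and both measures depend on depth by construction. Leaving out barcodes found in more than 1 library was added after the data were seen. Depth limits Egr3, Nr4a1 and Nr4a2 most, with 174, 101 and 26 UMIs in all.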
